A study of Mus musculus with 5 samples.

Results

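The clustered protocadherins, the Pcdha, Pcdhb and Pcdhg genes of mouse chromosome 18, were examined in the newborn visual thalamus of mice that lack the guidance gene Sema6a. Members were all probe sets whose platform gene entry holds a symbol that starts with Pcdha, Pcdhb or Pcdhg, which gave 35 of 45037 tested probe sets and 37 genes. Of these sets, 6 belonged to the alpha cluster, 28 to the beta cluster and 1 to the gamma cluster. RNA was taken on postnatal day 0 from the dLGN, the dorsal lateral geniculate nucleus, which relays retinal input to the visual cortex. The knockout group, 2 arrays, came from homozygous Sema6A-/- pups, and the control group, 3 arrays, from heterozygous pups with 1 working copy, all on a C57BL/6 background. The series holds no wild-type array, and the disrupted part of Sema6a is not given in the labels. Each array measured nuclei pooled from pups of several litters, so p-values measure the spread between pools. The smallest p that an exact permutation of 2 and 3 pools allows is 0.1.

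Clustered protocadherins are cadherin-related adhesion proteins of the neuronal surface that bind like isoforms on a facing membrane. In the alpha and gamma clusters each variable exon has its own promoter and is spliced to constant exons that all isoforms of the cluster share, whereas beta genes have no constant exons. Neurons switch on small random sets of the variable exons, through CTCF and cohesin loops and DNA methylation, and the C-type isoforms are chosen more regularly. The resulting surface codes let branches of the same neuron avoid each other, and mice without functional alpha protocadherins have clumped retinal terminals in the dLGN.

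The platform entries set what could be read from each cluster. All 6 alpha probe sets are shared: 3 name all 14 alpha genes of the RefSeq annotation (GRCm38.p6), and 3 name 9 of them, without Pcdha3, Pcdha5, Pcdha6, Pcdha7 and Pcdha8. No alpha isoform had a probe set of its own, so the choice among alpha isoforms could not be read. Where on the transcripts these 6 sets lie was not analysed here. In the beta cluster, by contrast, each of the 22 genes had at least 1 probe set of its own. Of 22 gamma genes, only Pcdhgc4 was named by a probe set, and the other gamma genes were not analysed here. In at least 1 group, 17 of the 35 members reached 6.39, the median level of all probe sets on the log2 scale: 4 alpha sets, 12 beta sets and the set of Pcdhgc4.

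The genotype labels were checked first at Sema6a, which encodes a transmembrane semaphorin. At its brightest probe set the knockout level was 7.83 ± 0.03 (SD, n = 2) and the control level 10.50 ± 0.13 (SD, n = 3), a log2 fold change of -2.68 with a limma adjusted p of 0.0236. Its other sets gave -2.27 and -2.52, each at an adjusted p of 0.0546 in limma. With an array left out the brightest set gave -2.73 to -2.60 and limma adjusted p-values of 0.0654 to 0.234, and with the replicate number as a block 0.298, past the threshold in none of these fits. All 15 measured markers of thalamic relay neurons reached the median level in at least 1 group. Their log2 fold changes ran from -1.44 to 1.97, 9 positive and 6 negative, with a median of 0.20. Among markers of microglia and macrophages, 15 of 17 measured had a higher knockout mean at an unadjusted p under 0.05, where 6.90% of genes stood, and 15 reached the median level. Their summed level was 13.58 and 13.97 in the knockout against 11.80 to 12.02 in the control on the log2 scale. GABAergic and prethalamic markers were high in knockout replicate 1, with a summed level of 13.50 against 11.37 in knockout replicate 2 and 10.84 to 11.61 in the control, and 13 of the 19 reached the median level. Over markers of neurons, astroglia, oligodendrocytes, endothelium, meninges with choroid plexus, red cells and cortex, the median log2 fold changes were 0.00, 0.10, 0.21, 0.18, -0.34, -0.29 and 0.08. Only 4 of 13 meningeal and choroid plexus markers, 1 of 5 red cell markers and 6 of 10 cortical markers reached the median level. For the neuronal and astroglial lists this was 15 of 15 and 13 of 14, and for oligodendrocytes and endothelium 10 of 13 each. At an unadjusted p under 0.05 stood 11.8% of genes, 6.90% higher and 4.90% lower. Of 15 relay neuron markers 2 were higher and 1 lower, and of 19 GABAergic and prethalamic markers 4 and 0. Of 13 oligodendrocyte markers 3 were higher and 2 lower, of 10 cortical markers 2 and 3, and of 13 endothelial markers 3 and 0. Of 15 neuronal markers 0 were higher and 1 lower, and of 5 red cell markers likewise. Meningeal and choroid plexus markers gave 1 and 1 of 13. The higher was Pdgfra (0.42), also counted among the oligodendrocyte markers, and the lower was Col1a1 (-1.95). Astroglial markers gave 0 and 0 of 14. The part of these markers in the protocadherin values was not tested. In the quality probe sets, the 3′ set of Gapdh exceeded the 5′ set by 2.34 in knockout replicate 1, against 0.96 in knockout replicate 2 and 0.77 to 1.33 in the control. Xist read 10.79 to 11.54 except in knockout replicate 2, where it read 4.10. Across the 5 arrays the Y-linked genes Eif2s3y, Kdm5d and Uty read 9.97 to 11.22, 7.13 to 7.94 and 3.66 to 5.07. Each of these genes was highest in knockout replicate 2, the array with the low Xist value. The next highest values were 10.66 and 7.85 in control replicate 3 and 4.54 in control replicate 1. The labels give no sex for the pools.

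None of the 35 clustered protocadherin probe sets (0) had a limma adjusted p under 0.05, where 0.0733% of all probe sets passed. At an unadjusted p under 0.05 there were 5 members, where 11.1% of all probe sets stood. Of these, 2 were higher in the knockout, as were 5.16% of all probe sets, and 3 were lower, as were 5.99%. All 3 that were lower belonged to the alpha cluster. The groups did not overlap at 11 members, where 27.3% of all probe sets showed no overlap. Knockout arrays were above all controls at 5 members (12.9% of all probe sets) and below them at 6 (14.5%). Of the 6 that were lower without overlap, 5 were alpha sets. The 6 alpha sets name overlapping genes and are not separate members, while the 28 beta sets read 22 genes. The median log2 fold change was -0.68 over the 6 alpha sets and -0.02 over the 28 beta sets, beside -0.01 over all probe sets. Over the 12 beta sets that reached the median level it was 0.11. Relative to the control mean, the median of these 12 sets was 0.19 and 0.05 in knockout replicates 1 and 2. In control replicates 1, 2 and 3 it was -0.08, -0.05 and 0.13, so 0.11 lies within the range of the control arrays. The difference between clusters was not tested.

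**Figure D1:**
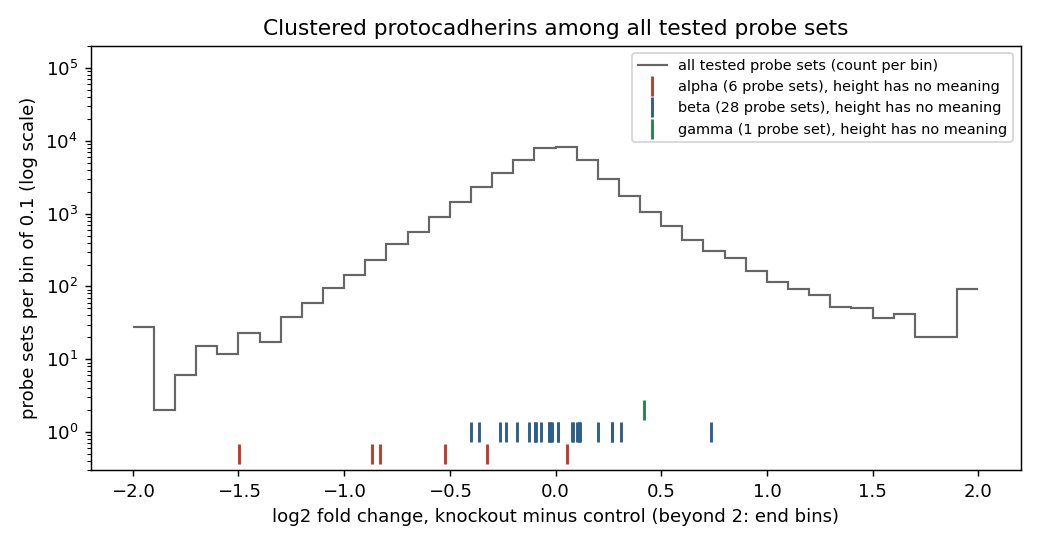
Log2 fold changes, knockout minus control, on the x axis. The outline counts all tested probe sets per bin of 0.1 on a log axis, and ticks mark the 6 alpha, 28 beta and 1 gamma probe sets at heights without meaning. Of the alpha ticks, 5 lie left of 0, down to -1.50, while the beta ticks lie between -0.40 and 0.73.

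In the alpha cluster, 5 of 6 shared probe sets read lower in both knockout arrays than in every control array. The set with the largest difference was 1425017_at, which names 9 alpha genes. It read 8.50 and 8.65 on the log2 scale in knockout replicates 1 and 2, and 10.22, 10.00 and 9.99 in control replicates 1, 2 and 3. The knockout arrays lay close together, and a gap of 1.34 separated the higher knockout array from the lowest control. This gave a log2 fold change of -1.50 (standard error 0.13), a 2.82-fold lower level, and the limma adjusted p of 0.0546 missed the threshold. The 95% interval of the difference ran from -1.82 to -1.17. Ordered by unadjusted p this set came at rank 36 of 45037, and 65 probe sets had a log2 fold change as low or lower. The adjusted p was 0.0342 with an intensity trend in the prior and 0.0294 without dim probe sets, so the call turns on these settings.

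The next alpha set, 1451769_s_at, names all 14 alpha genes. Its levels were 10.44 and 10.42 in the knockout arrays and 11.19, 11.24 and 11.47 in the control arrays. The pair of knockout values almost coincided and lay 0.75 below the lowest control. The difference was -0.87 on the log2 scale, with a standard error of 0.13 and a 95% interval from -1.19 to -0.55 (limma adjusted p = 0.128). Of all probe sets, 1.11% had a log2 fold change as low or lower.

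In the other alpha sets with lower knockout values, the distance from the controls was small or rested on knockout replicate 1. The set 1427687_at, which names 9 genes, read 4.64 and 5.70 in the knockout and 5.92, 5.75 and 6.33 in the control. Knockout replicate 1 was far below the rest, while knockout replicate 2 lay only 0.05 below the nearest control. Its log2 fold change was -0.83 (standard error 0.35, limma adjusted p = 0.470), and it was -0.30 without knockout replicate 1.

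The set 1425613_at, also of 9 genes, read 4.85 and 5.38 in the knockout and 5.64, 5.70 and 5.58 in the control, a log2 fold change of -0.52 (limma adjusted p = 0.388). Here too knockout replicate 1 was the lowest array, and without it the log2 fold change was -0.26. Both of these sets lay under the median level in each group, where RMA compresses differences. The set 1424341_s_at, of 14 genes, read 9.82 and 9.66 in the knockout and 10.17, 9.91 and 10.11 in the control, a log2 fold change of -0.32 (limma adjusted p = 0.451). Its groups did not overlap, with a gap of 0.10 between them.

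The sixth alpha set went against the others. The set 1420798_s_at, which names all 14 alpha genes, read 12.62 and 12.67 in the knockout and 12.69, 12.54 and 12.55 in the control. The groups overlapped, the log2 fold change was 0.05, and the 95% interval from -0.22 to 0.33 lies above that of 1425017_at and of 1451769_s_at. The alpha sets that name the same 14 genes thus gave log2 fold changes of 0.05, -0.32 and -0.87, so they do not give a common value for the cluster as a whole. Within each array the same contrast reads as follows, for sets chosen after their values were seen, so it restates those values and adds no support. The level of 1425017_at minus that of 1420798_s_at was -4.13 and -4.01 in the knockout arrays and -2.47, -2.54 and -2.56 in the control arrays. The same difference for 1451769_s_at was -2.19 and -2.24 in the knockout and -1.50, -1.30 and -1.08 in the control. Which of these sets stands for alpha transcript as a whole was not tested.

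**Figure D2:**
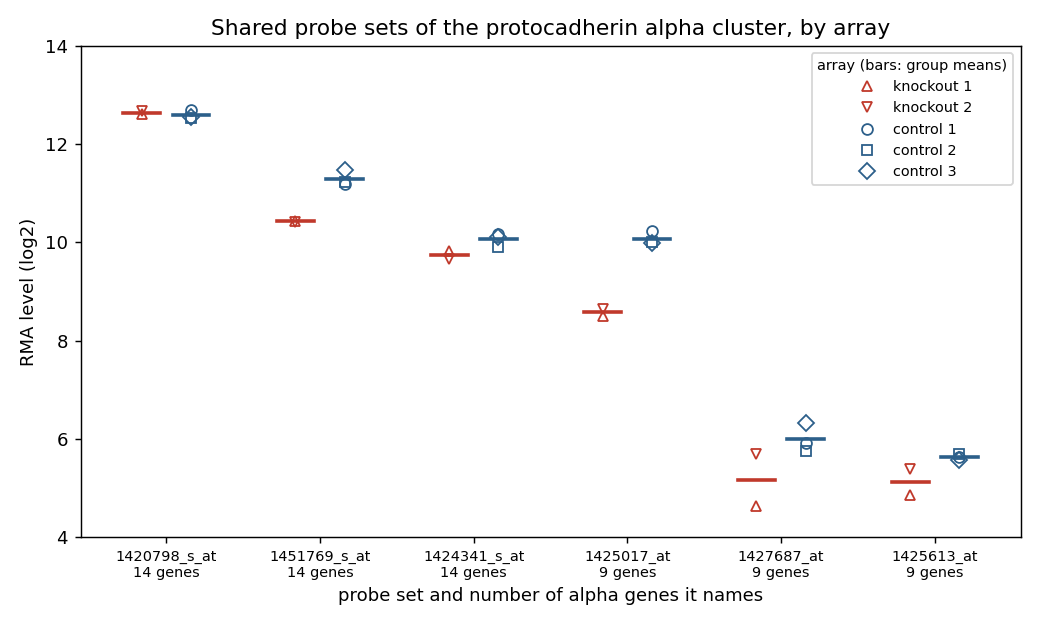
RMA levels on the log2 scale (y axis) of the 6 shared alpha probe sets (x axis), with 1 marker per array and a bar at each group mean. Levels are comparable between arrays within a probe set, not between probe sets. At 5 sets both knockout arrays lie below every control array, and at 1420798_s_at the groups overlap.

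The lower alpha values came from arrays that also differed in other ways. The microglia markers were higher in the same 2 knockout arrays, without overlap at 16 of 17, where 15.8% of genes were higher without overlap, and their part in the alpha values was not tested. In RNA from a whole tissue, fewer cells of a type and less RNA per cell cannot be told apart. Knockout replicate 1, with the higher GABAergic markers and the larger 3′ to 5′ difference, had an alpha median of -0.83 relative to the control mean, against -0.35 in knockout replicate 2. The part of these features in the alpha values was not tested. At 1425017_at and 1451769_s_at the 2 knockout arrays lay close together, at -1.57 and -1.42 relative to the control mean at the first and at -0.86 and -0.88 at the second.

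Beta genes, each a complete adhesion protein read from its own exon, had smaller differences of both signs. Of the 12 probe sets that reached the median level, 9 had a positive and 3 a negative log2 fold change, and the groups did not overlap at 3, each higher in the knockout. Among all 23222 probe sets that reached this level, the groups did not overlap at 7801, and 3533 of these were higher in the knockout. Of the 16 dimmer sets, 4 were positive and 12 negative. Over all 28 sets the groups overlapped at 23 and did not at 5, where 27.3% of all probe sets showed no overlap. In limma 1 beta set was higher at an unadjusted p under 0.05 (5.16% of all probe sets) and 0 were lower (5.99%). The smallest limma adjusted p was 0.412. The median size of the beta differences, without regard to sign, was 0.11, beside 0.15 over all probe sets.

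The beta set with the largest difference was that of Pcdhb4. Its brighter set, 1440632_at, read 8.03 and 7.18 in the knockout and 6.74, 6.81 and 7.07 in the control. Both knockout arrays were above every control array, but knockout replicate 1 stood far above knockout replicate 2. The difference was 0.73 on the log2 scale with a standard error of 0.27 (limma adjusted p = 0.412), and it was 0.31 without knockout replicate 1. The other set of Pcdhb4 gave -0.26 at levels of 2.46 to 3.16, far under the median level.

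Pcdhb16 had 3 probe sets. The set 1441358_at read 8.43 and 8.14 in the knockout and 7.87, 8.02 and 8.04 in the control, without overlap, a log2 fold change of 0.31 (limma adjusted p = 0.485) that was 0.17 without knockout replicate 1. The set 1441994_at gave 0.27, but its knockout replicate 2, at 8.39, lay among the controls, and the value was -0.02 without knockout replicate 1. The third set, under the median level, gave -0.10. Both sets of Pcdhb15 lay under the median level and had their lowest value in knockout replicate 1, with log2 fold changes of -0.36 and -0.40.

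The other beta sets that reached the median level gave small differences with wide intervals. Pcdhb12 gave a log2 fold change of 0.27, which was 0.068 without knockout replicate 1, and knockout replicate 1, at 7.21, stood apart from the other arrays at 6.68 to 6.81. Pcdhb7 (0.12), Pcdhb17 (0.11), Pcdhb20 (0.11), Pcdhb3 (0.08) and Pcdhb22 (0.01) were above 0, of which Pcdhb22 was chosen after its values were seen. Without knockout replicate 1 the value of Pcdhb17 was 0.031 and that of Pcdhb3 was -0.057. Pcdhb9 (-0.23), Pcdhb19 (-0.13) and Pcdhb21 (-0.09) were below 0, with Pcdhb21 at 0.065 without that array. Among these 8, only at Pcdhb20 did the groups not overlap, with 10.47 and 10.44 in the knockout against 10.41, 10.33 and 10.31 in the control. The 95% interval of Pcdhb20 ran from -0.15 to 0.37 and that of Pcdhb19 from -0.78 to 0.53, so differences of these sizes were not detectable with 5 arrays.

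The remaining 16 beta sets stayed under the median level in both groups, with log2 fold changes from -0.40 to 0.20. Among them was Pcdhb1, at 2.32 and 2.25 in the knockout and 2.23 to 2.35 in the control. Of these 16, 10 held exactly the same value in at least a pair of arrays. Where the pair lies within a group, this narrows the spread shown, but at some sets it joins a knockout and a control array. Across all 28 beta sets, knockout replicate 1 was the highest array at 9 and the lowest at 6, whereas knockout replicate 2 was the highest at 3 and the lowest at 3. At 12 sets the knockout arrays lay on opposite sides of the control mean.

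The gamma cluster was read through Pcdhgc4, a C-type isoform that neurons of the postnatal brain need to survive. It read 7.38 and 7.48 in the knockout and 6.86, 6.91 and 7.27 in the control. Both knockout arrays were above every control, and control replicate 3 lay 0.11 below the nearer of them. The difference was 0.42 on the log2 scale with a standard error of 0.16 and a 95% interval from 0.02 to 0.82 (limma adjusted p = 0.434). This 1 set does not stand for the cluster.

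**Figure D3:**
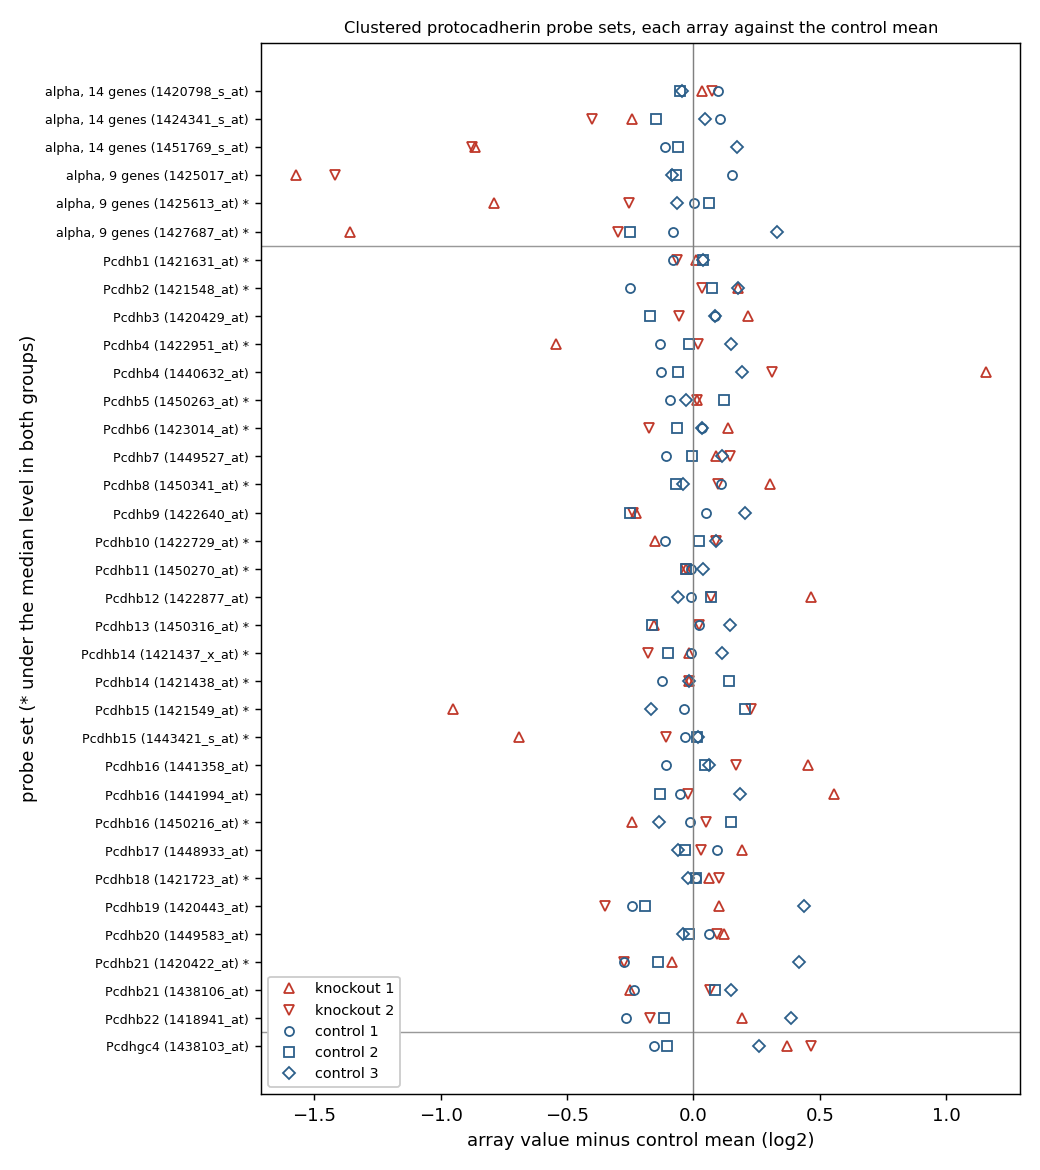
Each array's value minus the control mean (x axis, log2) for all 35 clustered protocadherin probe sets (y axis, beta genes by number), with 1 marker per array. An asterisk marks sets under the median level in both groups. Knockout markers lie left of the controls at 5 alpha sets, and knockout replicate 1 stands apart at Pcdhb4, Pcdhb12, Pcdhb15 and Pcdhb16.

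Sema6a lies on chromosome 18 too, with 65 protein-coding genes between it and the gamma cluster in RefSeq order, so the genes around the clusters were read beside them. These were the 20 nearest genes with a probe set on each side and the 2 that lie among the clusters, each at its brightest set. Of these 42 neighbours, 0 passed an adjusted p of 0.05 in limma, where 0.104% of genes passed. There were 6 at an unadjusted p under 0.05, where 11.8% of genes stood, with 4 higher (6.90% of genes) and 2 lower (4.90%). The groups did not overlap at 12 neighbours, 7 higher and 5 lower. Among all 18193 genes they did not overlap at 5411, 2877 higher and 2534 lower. The median log2 fold change of the neighbours was 0.02. The genes among the clusters are Slc25a2, a mitochondrial ornithine carrier, and Taf7, a subunit of the general transcription factor TFIID. Slc25a2 differed by -0.71 (limma adjusted p = 0.464), with means of 5.83 in the knockout and 6.54 in the control. Its groups did not overlap, and only its control mean reached the median level. Taf7 differed by -0.19 (limma adjusted p = 0.673), and its groups overlapped.

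Genes that act on the promoters of the clusters showed no common direction. Of 24 measured members, 12 were positive and 12 negative, 0 passed an adjusted p of 0.05 in limma (0.104% of genes), and 2 had an unadjusted p under 0.05 (11.8% of genes), 1 in each direction. The list's median log2 fold change was 0.01. Dnmt3b, the enzyme that sets DNA methylation at these promoters in the early embryo, had a knockout level of 6.95 ± 0.08 (SD, n = 2) and a control level of 6.58 ± 0.09 (SD, n = 3), a difference of 0.37 (limma adjusted p = 0.353). Pds5a, a regulator of cohesin, differed by -0.43, its paralog Pds5b by 0.25 and Mau2, a partner in the loading of cohesin, by -0.24 (limma adjusted p from 0.338 to 0.521). Ctcf, which anchors the promoter loops, differed by -0.04, the cohesin subunit gene Rad21 by 0.11 and Smchd1, a silencer of the clusters, by 0.02. These 3 were chosen for their role after their values were seen.

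Intracellular partners of the clustered protocadherins were also spread around 0. Of 25 measured, 13 were positive and 12 negative with a median log2 fold change of 0.01, 0 passed an adjusted p of 0.05 in limma (0.104% of genes), and 2 had an unadjusted p under 0.05 (11.8% of genes), 1 in each direction. Prkca, a protein kinase C that acts on the cytoskeletal protein MARCKS downstream of gamma protocadherins, read 9.99 in both knockout arrays and 10.72 ± 0.11 in the control (SD, n = 3). The difference was -0.73 (limma adjusted p = 0.135), and the equal knockout values narrow its spread. Rhoa, a small GTPase of the cytoskeleton, differed by 0.61, Ptk2b, a kinase that protocadherin cytoplasmic domains inhibit, by -0.39 and Axin1, a scaffold of Wnt signalling, by -0.26 (limma adjusted p from 0.358 to 0.602). Without knockout replicate 1 these differences were 0.38, -0.16 and -0.092.

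**Figure D4:**
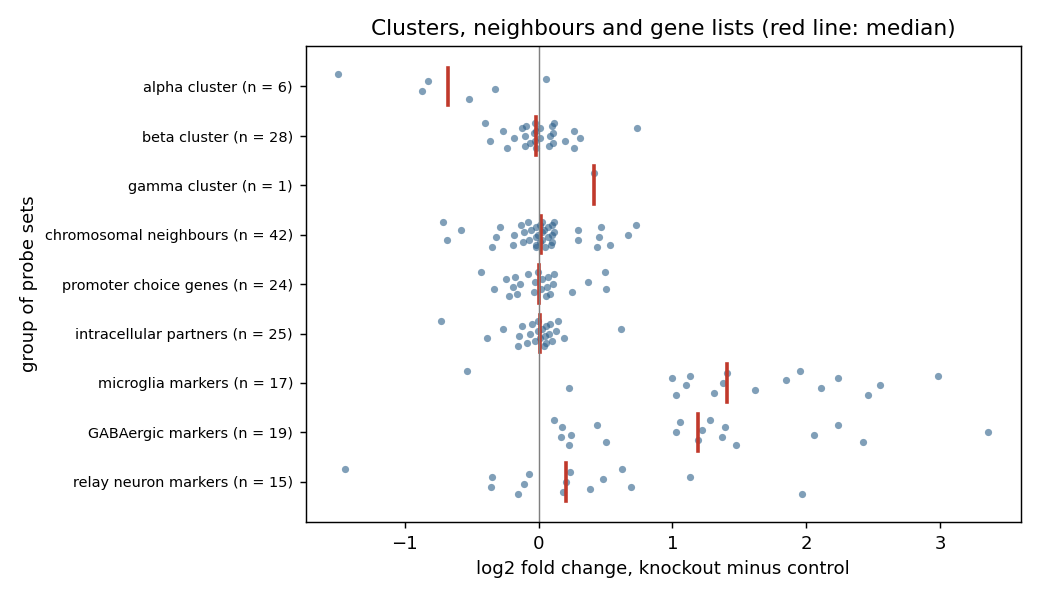
Log2 fold changes, knockout minus control (x axis), of the probe sets in each group (y axis), with a red line at the median and points spread vertically for legibility. The alpha median, over sets that share genes, lies at -0.68, and the microglia markers have a median of 1.40. The beta, neighbour, promoter choice and partner medians lie between -0.02 and 0.02.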

How the data were processed

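Each deposited value is the log2 level of a probe set on an Affymetrix array. The authors used RMA, per the submitters' processing notes, with version and settings not given in the sources used here. RMA normalises quantiles between arrays and compresses differences near background, and the number of arrays limits the precision. Groups came from the titles.

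Of 45101 probe sets, 64 control sets were left out. Knockout and control were compared in limma 3.58.1 (lmFit, eBayes; R 4.3.3) by a two-sided test with Benjamini-Hochberg adjustment over 45037 probe sets and genotype as the only term. Adjusted p-values and 95% intervals come from this fit unless another setting is named beside them. A check of the fit on simulated data asked only whether planted differences were returned and larger ones called more often. Platform annotation named the probe sets: 34945 held 1 gene, 932 several and 9160 none. For lists and neighbours the probe set with the highest mean stood for a gene, which left 18193 genes.

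The members and lists were chosen with earlier results of these data known. The rule named all shared sets, C-type genes and Pcdhb1, up to 8 other members in each direction with the smallest p that reached the median level, sets of a gene that disagreed in sign above that level (there were none), up to 4 genes of each pathway list, and Sema6a. The pathway lists were promoter choice genes and intracellular partners, and neighbours were chosen by position. The alternatives tried were a block for the replicate number, other normalisations, filters, priors, array weights, thresholds, summaries and each array left out.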

Additional observations from a re-analysis of the deposited data

Results flagged for a closer look

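The quality probe sets, which entered no test, showed a larger 3′ minus 5′ difference in knockout replicate 1 than in every control array. It was 2.34 for Gapdh against at most 1.33 in the control, and 1.91 for Actb against at most 1.45, on the log2 scale. Their part in the protocadherin values was not tested.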

How the results depend on the processing

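The count of members past an adjusted p of 0.05 went from 0 to 1, the set 1425017_at, with an intensity trend, without dim probe sets and at an adjusted p of 0.1. With any 1 array left out it stayed 0 in limma, and the adjusted p of 1425017_at ran from 0.0840 to 0.292 at log2 fold changes from -1.57 to -1.42. With the replicate number as a block, 0 members passed, 5 had an unadjusted p under 0.05, and 1425017_at gave -1.54 (limma adjusted p = 0.345). Nothing in the labels pairs arrays of the same number. The deviations from the group means correlated at 0.15 and 0.21 for same-numbered arrays, and at -0.21 and -0.15 for unlike-numbered ones. With 2 knockout arrays these deviations mirror each other, so the values cannot decide on a pairing. Sema6a gave -2.73 with the block (limma adjusted p = 0.298) and -2.73 to -2.60 with an array left out (0.0654 to 0.234), losing its call each time, where fewer residual degrees of freedom remain.

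The 5 members at an unadjusted p under 0.05 became 2 at p under 0.01 and 2 without sets of several genes. With an array left out they numbered 2 to 11, the highest without knockout replicate 2. The 11 members without overlap became 7 without dim sets, 6 without sets of several genes and 13 to 22 with an array left out, where fewer arrays must be apart. The alpha median was -0.83 without _x_at and _s_at sets, -0.60 without dim sets and -0.83 to -0.35 with an array left out, the latter without knockout replicate 1. The beta median was 0.11 without dim sets. The promoter choice median was -0.0233 over the mean of a gene's sets and -0.0236 to 0.0371 with an array left out, where 1 to 4 of its genes, and 1 to 3 partners, had an unadjusted p under 0.05.

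Of 27 named probe sets other than those of Sema6a, 5 changed sign under at least 1 alternative, in 8 of 321 values. Pcdhb19 gave 0.092 with the block and -0.35 to 0.099 with an array left out. The ranges with an array left out were -0.0571 to 0.216 for Pcdhb3, -0.0673 to 0.00979 for Pcdhb1, -0.253 to 0.0654 for Pcdhb21 and -0.0225 to 0.557 for the Pcdhb16 set 1441994_at. The 16 beta and 2 alpha sets under the median level lie nearest to background and are the least reliable.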
